A study of Homo sapiens with 6 samples.

Results

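The genes described here are the 10 members of the insulin-like growth factor (IGF) axis that bind IGFs or carry their signal at the cell surface: the binding proteins IGFBP1 to IGFBP7, the receptors IGF1R and IGF2R, and the docking protein IRS1. They were chosen by symbol, 10 of 23180 gene symbols in the table. Each was represented by its listed transcript with the largest count summed over all samples. This list and the other gene lists were chosen with earlier results of these data known. Their counts beside the shares of all genes are therefore a description and not a test. RNA-Seq was performed on A549 cells, a human lung adenocarcinoma cell line, in 2 groups of 3 samples. Cells at passage 11 were transfected with siControl, a control siRNA, or with siKMT9α#1, which targets the α subunit of the histone methyltransferase KMT9 (gene N6AMT1). The final siRNA concentration was 65 nM and RNA was taken 3 days later. One siRNA against KMT9α was sequenced, so that effects of the knock-down and of this siRNA on other transcripts cannot be told apart. The labels call the 3 samples of each group biological replicates and give no culture or transfection date for them.

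IGF1 and IGF2 are secreted growth factors that act through the receptor tyrosine kinase IGF1R. Upon binding, IGF1R phosphorylates docking proteins such as IRS1, which recruit PI3-kinase and lead to AKT activation. IGF2R has no kinase and takes IGF2 to the lysosome, so that it lowers the ligand outside the cell. IGFBP1 to IGFBP6 bind IGFs with high affinity, extend their half-life and keep them from the receptor until proteases release them, while IGFBP7 binds IGFs weakly. In lung cancer cells the axis is best known as a source of growth and survival signals.

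Depth was 15551778 to 18568640 counts per siControl sample and 13740097 to 19832396 per siKMT9α#1 sample, taking 1 transcript per gene. N6AMT1 fell from 10.8 ± 0.62 to 3.15 ± 0.25 CPM (counts scaled to a common library size, mean ± SD, n = 3), a log2 fold change of -1.77 (SE 0.12, adjusted p = 1.43e-10, edgeR). Epithelial markers were present: the summed CPM of the 5 genes was 3214 to 3576 in siControl and 1725 to 1816 in siKMT9α#1. Of the 5, 4 were lower and 1, CDH1, higher. Nearly all of the sum was KRT8 and KRT18. EPCAM was at 3.86 CPM in siControl and 0.59 in siKMT9α#1, and CDH1 was at 3.39 and 8.62 CPM. Endothelial markers summed to at most 1.17 CPM. Fibroblast markers (7 genes) summed to 10.9 to 13.4 and 6.91 to 8.26 CPM, with COL1A2 at 0 in all samples. Leukocyte markers (5 genes) summed to 81.5 to 88.3 and 29.0 to 30.3 CPM, nearly all of it CD68, with CD3E at 0 in all samples and PTPRC at 2 counts or fewer. The part of these shifts in the results on the IGF axis was not tested. In bulk RNA, fewer cells of a type and less RNA per cell cannot be told apart.

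The 250 bases before the transcription start are shown for the binding protein gene that rose most, IGFBP4, and for the pair that fell, IGFBP6 and IGFBP2. The RefSeq promoter table (GRCh38.p14) held 8 of the 10 members, all but IGFBP1 and IGFBP7, and the sequences were placed on GRCh37 by exact match. The windows lie on the plus strand at chr17:38599452-38599701 (IGFBP4), chr12:53491201-53491450 (IGFBP6) and chr2:217497893-217498142 (IGFBP2). Their RefSeq start sites were 15 to 26 bases downstream of the starts of the deposited transcripts. The last bases of each window therefore lie within the deposited transcript. Capitals mark a TATA box (TATAAA), a forkhead core (GTAAACA) and GC boxes (GGGCGG), searched on both strands, so that a GC box on the opposite strand reads CCGCCC.

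IGFBP4: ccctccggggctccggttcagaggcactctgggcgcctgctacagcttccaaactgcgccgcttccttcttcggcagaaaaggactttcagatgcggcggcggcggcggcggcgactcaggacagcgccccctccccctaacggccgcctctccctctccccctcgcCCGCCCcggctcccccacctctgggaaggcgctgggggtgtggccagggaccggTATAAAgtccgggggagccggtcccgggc
IGFBP6: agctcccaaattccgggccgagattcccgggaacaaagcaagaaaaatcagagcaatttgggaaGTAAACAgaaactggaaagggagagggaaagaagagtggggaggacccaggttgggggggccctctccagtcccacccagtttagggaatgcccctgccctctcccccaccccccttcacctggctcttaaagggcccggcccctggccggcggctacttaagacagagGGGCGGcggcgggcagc
IGFBP2: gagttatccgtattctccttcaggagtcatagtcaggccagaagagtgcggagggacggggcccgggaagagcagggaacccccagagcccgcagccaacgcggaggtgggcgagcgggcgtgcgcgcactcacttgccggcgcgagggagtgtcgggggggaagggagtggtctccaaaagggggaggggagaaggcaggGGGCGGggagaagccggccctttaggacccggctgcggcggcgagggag

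IGFBP4 was the only one of the 8 matched members with TATAAA in this window, and 10.7% of 35116 promoter windows of this length held the motif. It starts 29 bases before the RefSeq start site. The deposited transcript starts 26 bases before that site, so that the motif spans the deposited start. IGFBP6 was the only one with GTAAACA, at 186 bases before the start site, against 2.98% of all windows. This is the core sequence that forkhead factors such as the FOXO proteins recognise. A GC box, the core of the Sp1 site, was found in 7 of the 8 windows, all but that of IGFBP5, against 42.6% of all windows. The 8 windows had a GC content of 61.2% to 81.2%, and the share among windows of like GC content was not computed. The start sites used for IGF1R and IRS1 were 993 and 1030 bases from the deposited starts. The motifs were chosen after the sequences and values were seen, and a match is a description of the letters, not a site of binding.

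Upon knock-down of KMT9α, the IGF axis shifted in both directions. IRS1 and IGFBP4 rose most, IGF1R, IGFBP3 and IGFBP7 rose by a smaller amount, and IGFBP6 and IGFBP2 fell. Of the 10 members, 9 passed the filter on low counts and were tested, and IGFBP5 did not. All 9 had an adjusted p under 0.05 in the quasi-likelihood test of edgeR, where p-values were adjusted by Benjamini-Hochberg across the 13877 genes tested. Of all genes tested, 75.6% passed this threshold, so that passing it sets no member apart. Higher in siKMT9α#1 were 7 members, where 37.1% of all genes were higher, and lower were 2, where 38.5% of all genes were lower. The study's methods state a stricter threshold, an unadjusted P under 1e-08 with a log2 fold change beyond 0.26 in either direction. It was passed by 6 of the 9 members, where 24.2% of all genes passed it. These were IGFBP3, IGFBP4, IGF1R and IRS1, which were higher as were 13.5% of all genes, and IGFBP2 and IGFBP6, which were lower as were 10.7% of all genes. The count was 4 without siControl replicate 2, without siControl replicate 3 or without siKMT9α#1 replicate 2, and 7 without siControl replicate 1. In all 9 the 3 values of one group did not overlap those of the other, as in 77.0% of all genes tested. The median size of the log2 fold change, whatever its sign, was 0.60 for the 9 members and 0.47 for all genes, and the signed medians were 0.58 and -0.01.

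**Figure D1:**
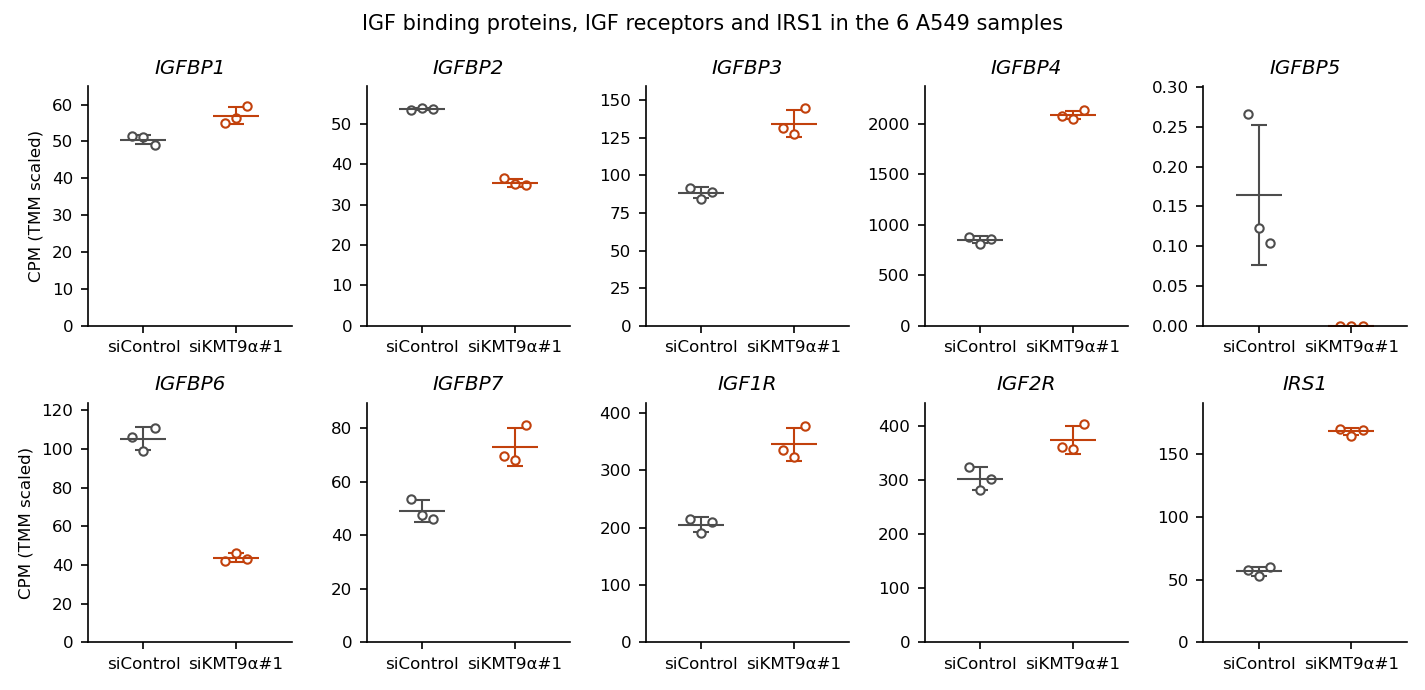
Scaled counts (CPM with TMM factors, linear axes from 0) of the 10 members in each sample, siControl in grey and siKMT9α#1 in orange. Points are samples, the long bar is the mean and the whiskers are the SD (n = 3). IGFBP4 and IRS1 stand apart most clearly above siControl, IGFBP6 and IGFBP2 lie below it, and IGFBP5 is at the counting limit.

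IGFBP4 binds both IGFs and is regarded as an inhibitor of their action. Its gene has 4 exons on the plus strand of chromosome 17 (hg19, chr17:38599676-38613982, NM_001552). It was at 882.3, 813.8 and 860.5 CPM in siControl and at 2075, 2047 and 2130 CPM in siKMT9α#1. The lowest siKMT9α#1 sample thus lay far above the highest siControl sample, and the SDs were 35.0 and 42.2 CPM around means of 852.2 and 2084. The log2 fold change was 1.29 (SE 0.05, adjusted p = 2.04e-14, edgeR), a 2.45-fold higher level.

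IGFBP6 prefers IGF2 over IGF1 and is mainly an inhibitor of IGF2 action. It lies on the plus strand of chromosome 12 (chr12:53491436-53496128, NM_002178, 4 exons). Its CPM was 106.1, 99.2 and 111.0 in siControl and 41.9, 46.4 and 43.1 in siKMT9α#1. The groups were far apart relative to their spread, with means of 105.4 ± 5.97 and 43.8 ± 2.30 CPM (SD, n = 3). IGFBP6 thus had a log2 fold change of -1.27 (SE 0.06, adjusted p = 2.32e-13, edgeR). Its promoter window, printed above, is the one with the forkhead core.

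IGFBP2, a binding protein that can also attach to integrins and the matrix, changed in the same direction by less. Its samples were at 53.5, 54.0 and 53.6 CPM in siControl and at 36.6, 35.0 and 34.8 CPM in siKMT9α#1. The siControl samples were within 1 CPM of each other, and each group varied by far less than the distance between them. The log2 fold change was -0.60 (SE 0.06, adjusted p = 1.02e-08, edgeR) and became -0.42 with offsets for transcript length and -0.33 with offsets for GC content and length. The GC content of its transcript was 67.4%, the highest of the 10 members.

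IGFBP3 carries most IGF in blood, and inside tissues it can restrain growth with or without IGF binding. Its CPM was 91.9, 84.6 and 89.3 in siControl and 131.4, 127.3 and 144.6 in siKMT9α#1. All siKMT9α#1 samples were higher, and siKMT9α#1 replicate 3 was the highest. This gave a log2 fold change of 0.60 (SE 0.06, adjusted p = 7.29e-09, edgeR). IGFBP3 is the only member with more than 1 listed transcript, and both (NM_001013398 and NM_000598) gave 0.60 when transcripts were tested as separate rows. They share nearly all their exons and reads and are not independent of each other.

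IGFBP7, also known as a matrix protein of vessels and as a marker of senescent cells, was at 53.7, 47.6 and 46.1 CPM in siControl. In siKMT9α#1 it was at 69.7, 68.0 and 81.2 CPM, above siControl in every sample. Its log2 fold change of 0.58 (SE 0.07, adjusted p = 4.66e-07, edgeR) was about that of IGFBP3, but it did not pass the stated threshold. The span of the gene (chr4:57897244-57976539, minus strand) overlaps the listed genes IGFBP7-AS1 and POLR2B. Whether reads were counted by strand is not stated, so that reads from IGFBP7 and its antisense partner cannot be told apart.

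IGFBP1, known from liver as an insulin-repressed binding protein and a target of FOXO1, moved least among the binding proteins. Its samples were at 51.3, 51.1 and 49.1 CPM in siControl and at 54.9, 56.5 and 59.7 CPM in siKMT9α#1. The groups did not overlap, but the gap between them was small. The log2 fold change of 0.18 (SE 0.06, adjusted p = 0.00695, edgeR) did not pass the stated threshold. With library size alone in place of TMM factors, which lowered the median of all genes by 0.11 on the log2 scale, it was 0.073 (adjusted p = 0.239).

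IGFBP5, the binding protein of muscle and bone matrix, was close to absent. It had 5, 2 and 2 counts in the siControl samples and 0 counts in each siKMT9α#1 sample. A count of 0 allows up to 3 counts, which is 0.157 to 0.227 CPM in these samples, and the siControl samples were at 0.27, 0.12 and 0.10 CPM. No fold change is given, since the siControl mean of 0.164 CPM lay within this range of limits. IGFBP5 was below the filter on low counts, and with no filter it was called lower. Such limits cover counting error only.

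The binding protein genes include 2 pairs of tail-to-tail neighbours. On chromosome 7, IGFBP1 (chr7:45927959-45933267, plus strand) and IGFBP3 (chr7:45951844-45960871, minus strand) are separated by 18576 bases with 0 other listed symbols between them. Their log2 fold changes were 0.18 and 0.60. On chromosome 2, IGFBP2 (chr2:217498127-217529158, plus strand) and IGFBP5 (chr2:217536828-217560272, minus strand) are 7669 bases apart, again with 0 symbols between them. IGFBP2 was expressed in all 6 samples, while IGFBP5 was at 0 to 5 counts. The difference within the IGFBP1 and IGFBP3 pair was not tested.

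Levels can be compared between genes only per transcript length, and on that scale IGFBP4 was the leading binding protein transcript of these cells. In siControl it reached 382.3 ± 15.7 CPM per kb (SD, n = 3), followed by IGFBP6 at 110.0 ± 6.22, IGFBP7 at 44.6 ± 3.62, IGFBP2 at 37.8 ± 0.17, IGFBP3 at 33.8 ± 1.42 and IGFBP1 at 30.7 ± 0.75 CPM per kb. The ranges of neighbours in this order did not overlap. In siKMT9α#1 the order changed: IGFBP4 stood at 935.0 ± 18.9 CPM per kb, IGFBP7 was the next at 66.3 ± 6.50, then IGFBP3 at 51.3 ± 3.45, IGFBP6 at 45.7 ± 2.40, IGFBP1 at 34.7 ± 1.47 and IGFBP2 at 24.9 ± 0.69 CPM per kb. IGFBP6 thus moved from the second to the fourth place, but its highest siKMT9α#1 sample (48.35) was close to the lowest of IGFBP3 (48.57). This order was not recomputed with offsets for transcript length, which brought the log2 fold change of IGFBP6 from -1.27 to -1.06.

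Summed over IGFBP1 to IGFBP7, the level was 659.2, 613.0 and 645.4 CPM per kb in the siControl samples. In the siKMT9α#1 samples it was 1147, 1136 and 1190 CPM per kb. The means, 639.2 ± 23.7 and 1158 ± 28.6 (SD, n = 3), differ 1.81-fold, which is a description of the sum without a test. IGFBP4 made up 59.8% ± 0.25 of the sum in siControl and 80.8% ± 0.43 in siKMT9α#1. The share of IGFBP6 went from 17.2% ± 0.65 to 3.95% ± 0.27 and that of IGFBP2 from 5.91% ± 0.25 to 2.15% ± 0.09. Without IGFBP4, the sum was 256.9 ± 8.0 CPM per kb in siControl and 222.9 ± 10.2 in siKMT9α#1, so that the higher total came with IGFBP4. Transcript levels say nothing of how much protein was secreted.

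**Figure D2:**
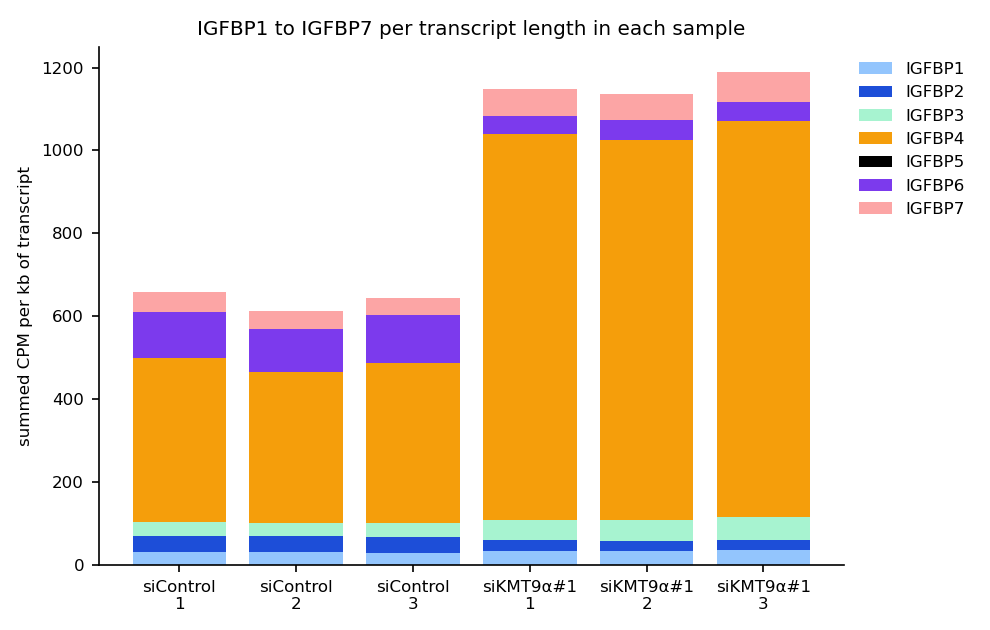
Stacked levels of IGFBP1 to IGFBP7 in each of the 6 samples, in CPM per kb of transcript on a linear axis from 0. The siControl columns reach 613.0 to 659.2 and the siKMT9α#1 columns 1136 to 1190, and the IGFBP4 segment grows most, from 382.3 to 935.0, while those of IGFBP6 and IGFBP2 shrink.

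Of all members, IRS1 changed most with TMM factors, and IGFBP4 changed more than IRS1 with offsets for transcript length (1.39 against 1.25) or for GC content and length (1.47 against 1.20). It couples IGF1R and the insulin receptor to PI3-kinase and lies on the minus strand of chromosome 2 (chr2:227596033-227663506, NM_005544, 2 exons). It was at 57.5, 52.8 and 59.7 CPM in siControl and at 170.1, 164.6 and 169.2 CPM in siKMT9α#1. All siKMT9α#1 samples were far above all siControl samples, and the log2 fold change was 1.57 (SE 0.05, adjusted p = 2.97e-15, edgeR), a 2.96-fold higher level. IRS2, the related docking protein, was at 108.2 ± 4.73 and 121.2 ± 7.02 CPM, a log2 fold change of 0.17 (SE 0.05, adjusted p = 0.00889, edgeR), which became -0.083 with length offsets (adjusted p = 0.126). IRS4 had no more than 2.5 estimated counts in any sample.

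IGF1R, the signalling receptor (chr15:99192761-99507759, plus strand, NM_000875, 21 exons), was at 215.3, 191.0 and 209.1 CPM in siControl. In siKMT9α#1 it was at 335.3, 323.0 and 377.5 CPM, higher in every sample. Its log2 fold change was 0.75 (SE 0.06, adjusted p = 9.23e-10, edgeR). IGF2R, the scavenging receptor (chr6:160390131-160527583, plus strand, NM_000876, 48 exons), was at 324.8, 281.9 and 301.7 CPM in siControl and at 361.0, 357.8 and 404.8 CPM in siKMT9α#1. Its groups did not overlap, and the log2 fold change was 0.31 (SE 0.06, adjusted p = 9.67e-05, edgeR), short of the stated P. Per kb, the ratio of IGF2R to IGF1R was 1.84 ± 0.04 in siControl and 1.35 ± 0.02 in siKMT9α#1 (SD, n = 3). IGF1R spans the listed microRNA gene MIR4714 and IGF2R the listed gene LOC729603.

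The transcripts of IGF1R (11201 bases), IGF2R (8996 bases) and IRS1 (8733 bases) are the longest of the members, and long transcripts as a class were higher in siKMT9α#1. Of the 698 genes tested with transcripts of at least 8000 bases, the median log2 fold change was 0.36, with 59.7% called higher and 21.9% lower. Of the 2189 genes under 1500 bases, which include IGFBP2, IGFBP6 and IGFBP7, the median was -0.19, with 24.9% called higher and 48.4% lower. With offsets for transcript length, IRS1 remained at 1.25 and IGF1R at 0.35, while IGF2R came to -0.020 (adjusted p = 0.704). With offsets for GC content and length, IRS1 was at 1.20, IGF1R at 0.32 (adjusted p = 1.45e-06) and IGF2R at -0.064 (adjusted p = 0.190). The higher level of IGF2R therefore depends on the treatment of length, and the part that length has in the samples' difference cannot be told apart from the knock-down. The binding proteins kept their direction: IGFBP4 was at 1.39 and 1.47 with the length offsets and the offsets for both, IGFBP6 at -1.06 and -0.97, IGFBP7 at 0.78 and 0.75, IGFBP3 at 0.67 and 0.61, and IGFBP1 at 0.34 and 0.27.

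**Figure D3:**
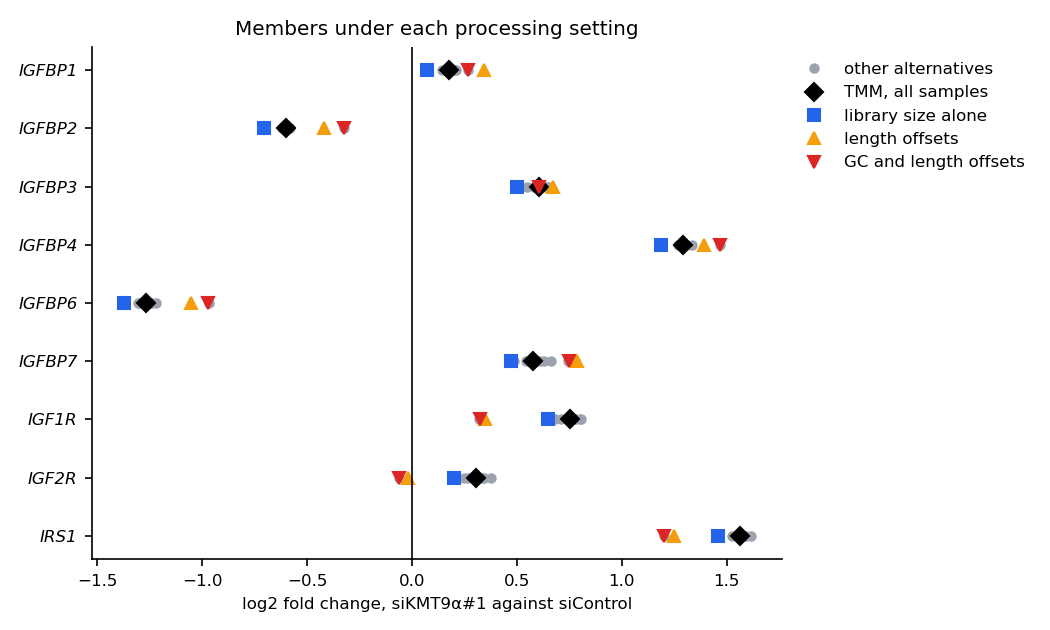
Log2 fold change of the 9 tested members, siKMT9α#1 against siControl, under each processing setting. Black diamonds are the values with TMM factors, coloured symbols are library size alone, length offsets and offsets for GC content and length, and grey points are the other alternatives. IGF2R crosses 0 with both kinds of offset, and IGF1R moves from 0.75 to 0.35 and 0.32.

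The surrounding pathway was followed through 47 further genes, of which 38 were tested. Higher were 23, where 37.1% of all genes were higher, lower were 11, where 38.5% of all genes were lower, and 4 were not called. With offsets for GC content and length, 18 were higher and 12 lower. The stated threshold was passed by 16 of them, 12 higher and 4 lower, where 24.2% of all genes passed it. The list's median log2 fold change was 0.26 and its median size 0.61, against -0.01 and 0.47 for all genes.

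Ligand transcripts were scarce. IGF2 was at 4.78, 4.17 and 4.47 CPM in siControl and at 1.28, 0.73 and 1.75 CPM in siKMT9α#1. Its log2 fold change was -1.76 (SE 0.21, adjusted p = 3.96e-07, edgeR), without passing the stated threshold, and its span overlaps that of the listed read-through gene INS-IGF2, so that IGF2 is uncertain where reads fit both. IGF1 had at most 1 count in any sample and INS had 0 counts in all of them. The insulin receptor INSR was lower, at 14.7 ± 1.20 CPM in siControl and 10.01 ± 0.58 in siKMT9α#1, with a log2 fold change of -0.56 (SE 0.10, adjusted p = 3.20e-05, edgeR), the opposite direction to IGF1R. INSRR, the related orphan receptor, had at most 1.5 estimated counts.

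The proteases that cleave binding proteins and the inhibitors of these proteases rose together: 4 of the 5 listed genes were tested, and all 4 were higher and passed the stated threshold, as did 13.5% of all genes tested in this direction. PAPPA, the metalloprotease that cleaves IGFBP4 and so frees IGF, was at 164.5, 126.8 and 143.6 CPM in siControl and at 560.3, 571.8 and 651.4 CPM in siKMT9α#1. The log2 fold change of 2.04 (SE 0.08, adjusted p = 1.21e-14, edgeR) stands beside 1.29 for its substrate IGFBP4, and the difference between both was not tested. With length offsets PAPPA was at 1.64 and IGFBP4 at 1.39. With offsets for GC content and length they were closer still, at 1.59 and 1.47. STC2, a secreted inhibitor of PAPPA, was at 1157 ± 53.4 and 1728 ± 57.4 CPM, with a log2 fold change of 0.58. STC1, which also inhibits PAPPA, was at 28.4 ± 2.49 and 45.2 ± 0.32 CPM, a log2 fold change of 0.67. HTRA1, a serine protease that cleaves several IGFBPs, was at 40.2 ± 3.72 and 71.9 ± 6.47 CPM, a log2 fold change of 0.84. With length offsets, STC2 was at 0.39, STC1 at 0.59 and HTRA1 at 0.95. With offsets for GC content and length, these genes were at 0.33, 0.54 and 1.01. IGFBP4, its protease and that protease's inhibitors were thus all higher at the RNA level.

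The CCN proteins share the IGF-binding-like module of the IGFBPs and act mainly in the matrix. Of the 6 genes, 4 were tested, of which 2 were higher and 2 were lower, where 37.1% of all genes were higher and 38.5% lower. CYR61 was at 112.8 ± 3.26 CPM in siControl and 279.1 ± 5.63 in siKMT9α#1, a log2 fold change of 1.31. NOV went from 45.3 ± 3.75 to 15.5 ± 0.67 CPM, a log2 fold change of -1.55, and WISP2 from 25.2 ± 0.49 to 9.09 ± 1.07 CPM, a log2 fold change of -1.49. Like the IGFBPs and all genes tested, this family held members that changed in opposite directions. All 3 IGF2 mRNA binding proteins, which regulate the stability and translation of IGF2 and other mRNAs, were higher, as were 37.1% of all genes. The log2 fold changes were 1.22 for IGF2BP2 and 0.52 for IGF2BP1. Both passed the stated threshold, as did 13.5% of all genes in this direction. IGF2BP1 came as low as 0.14 among the alternative settings. IGF2BP3 was at 0.22 (SE 0.05, adjusted p = 0.00113, edgeR), short of the stated threshold. Its fold change was not given under the alternative settings, so that its higher level holds for TMM factors only.

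**Figure D4:**
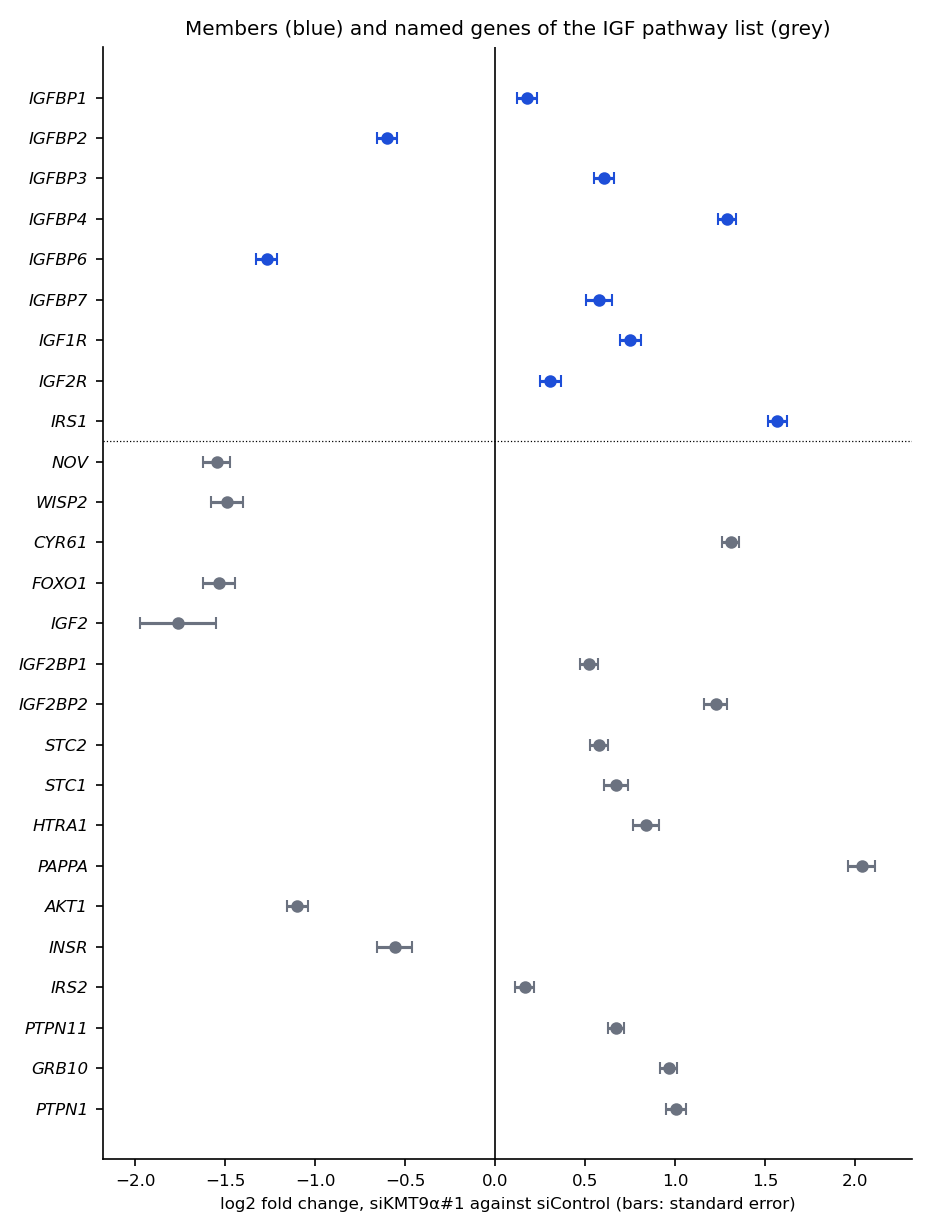
Log2 fold change, siKMT9α#1 against siControl, of the 9 tested members (blue, above the dotted line) and of named pathway genes (grey). Bars are the standard error of the edgeR fit. PAPPA, at 2.04, lies beyond IGFBP4 and IRS1 on the right, while IGF2, NOV, FOXO1 and WISP2 lie beyond IGFBP6 on the left.

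Of the adaptors and phosphatases that act at the receptors or beside IRS1, 6 of the 7 tested were higher and 0 were lower, where 37.1% of all genes were higher and 38.5% lower. IRS2 is one of the 6 and was not called with library size alone or with offsets for length or for GC content and length. GRB10, an adaptor that restrains IGF1R and insulin receptor signalling, went from 84.6 ± 1.59 to 165.1 ± 5.91 CPM, a log2 fold change of 0.96. PTPN1, a phosphatase that removes phosphate from these receptors, went from 51.5 ± 2.85 to 103.4 ± 4.24 CPM, a log2 fold change of 1.00, and PTPN11, which takes part in RAS activation, had 0.67. Of the 11 PI3-kinase and AKT genes, 7 were higher, 3 were lower and 1 was not called, against the same shares of all genes. AKT1 was lower, from 54.9 ± 0.48 to 25.7 ± 0.60 CPM (log2 fold change -1.10). AKT2 was higher, from 117.6 ± 5.48 to 158.5 ± 13.1 CPM (log2 fold change 0.43), short of the stated P. The AKT genes thus did not change in 1 direction.

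The FOXO factors are kept out of the nucleus by AKT and act on genes of this pathway. Of the 3 tested, 1 was higher and 2 were lower, where 37.1% of all genes were higher and 38.5% lower. FOXO1 was at 36.2, 29.7 and 30.8 CPM in siControl and at 10.5, 11.3 and 11.5 CPM in siKMT9α#1. All siKMT9α#1 samples were below all siControl samples, and the log2 fold change was -1.53 (SE 0.09, adjusted p = 9.31e-12, edgeR). IGFBP1 and IRS2, both known as FOXO1 targets in liver, had log2 fold changes of 0.18 and 0.17.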

How the data were processed

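RNA-Seq was analysed for 6 samples of A549 cells, 3 siControl and 3 siKMT9α#1. Reads were aligned to hg19 (STAR) and assigned to RefSeq transcripts (HOMER) by the authors, who deposited the estimated counts of each transcript without normalization. Values came in steps of 0.5, and 36.4% were not whole. Strand and counting options are not given in the sources used here. The transcript length column deposited by the authors was used as another, descriptive value in bases. The authors' columns with their own fold change, p-value and adjusted p-value were not used. The groups come from the labels, which do not number the siRNA; its number, concentration and time come from the study's methods. Of 38767 rows, 1182 had no symbol and counts, which left 37585 transcripts.

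For each symbol the transcript with the highest count over the 6 samples was kept. Counts were rounded and fitted with edgeR 4.0.16 in R 4.3.3 (TMM factors, filterByExpr, two-sided quasi-likelihood F test), and 13877 genes were tested. The SE is the size of the log2 fold change divided by the square root of F. CPM values were scaled by TMM factors (0.96 in siKMT9α#1 samples, 1.03 to 1.04 in siControl). The biological coefficient of variation was 4.47%. The fit was run on simulated counts in which most genes did not differ between the groups. Here 75.6% of genes were called, so that the simulation cannot test the TMM factors for these data. Within a group, samples differed by more than counting noise (chi-square of 1.36 to 5.28 per gene) and none was a duplicate. For single genes an exact permutation test of 3 against 3 cannot go below p = 0.1, so none is given.

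The members and gene lists were chosen with earlier results of these data known. All members were named, and, of the pathway list, genes past both thresholds plus the ligands, the insulin receptor family and the IRS genes, some of which are not reported here. AKT2 and IGF2BP3 are also given, beside the named genes of their groups. GRB2, SHC1 and the other listed genes are given by counts. Alternatives were library size alone, RLE factors, DESeq2 1.42.0, other filters, a replicate block, leaving out each sample, summing the listed transcripts, and offsets for length or for GC content and length (GC content known for 93.1% of genes tested).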

Additional observations from a re-analysis of the deposited data

How the results depend on the processing

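In all, 29 log2 fold changes were recomputed in 464 alternatives, and 456 kept their direction and their side of adjusted p of 0.05. Beside the members, N6AMT1 and the tested ligand, insulin receptor and IRS genes, these were pathway genes named because they passed both thresholds. Most of these genes were therefore likely to stay under 0.05 by their choice. The alternatives also share the same 6 samples, so that this share is a description and not a test of robustness. With library size alone, IGFBP1 was at 0.073 (adjusted p = 0.239), IRS2 at 0.060 (adjusted p = 0.313), and the log2 ratio of the summed IGFBP level was 0.75 instead of 0.86. IGF2R was at -0.020 with length offsets, -0.064 with offsets for GC content and length, and -0.064 when the replicate block was added to the latter. IRS2 was at -0.083 with length offsets, 0.0078 with offsets for GC content and length, and 0.0056 with the block added. The causes were not tested beyond the length classes given above. Of the members, 8 were called with library size alone, with length offsets, and with offsets for GC content and length with or without the replicate block. In each of these settings 6 were higher and 2 lower. With no filter, which adds IGFBP5 as lower, 10 were called. The stated threshold was passed by 3 when listed transcripts were summed (beside 2164 of 14164 genes tested), 8 with no filter (beside 6070 of 18751), and 4 to 7 with a sample left out. Leaving out a sample gave 9 members called, 32 to 34 pathway genes called (30 to 34 over all alternatives), and 0.83 to 0.88 for the summed IGFBP level.

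Replicate numbers did not pair the samples: deviations of same-numbered samples correlated at -0.08, 0.02 and -0.08, and 0 of 3 matched their own number best. With the replicate block, IGFBP4 was at 1.29, IGF1R at 0.75 and IGF2R at 0.31, the members past the stated threshold were 4 and all genes past it 2342 instead of 3357. All genes past it were 4773 of 13877 tested with DESeq2, 6070 of 18751 with no filter and 2164 of 14164 with summed transcripts. With a sample left out they were 2326 of 14168 to 4085 of 13977. Depth limits IGFBP5, IGF1, INSRR and IRS4, which were below the filter.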
